A study of Mus musculus with 2 samples.

Results

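Genes of the B cell receptor and of B cells were followed in RNA carried by vesicles that cultured mouse cytotoxic T lymphocytes (CTL, killers of infected and malignant cells) had released into culture medium. The set was Cd79a, Cd79b, Blnk, Syk, Cd22, Ms4a1, Cd180, Cd40, Fcer2a and Spib, chosen by gene symbol, with no MHC class II gene among them. It makes up 10 of the 19316 genes named on the array, and each of the 10 has 1 probe. The genes were picked after their intensities on these same arrays had been seen, so the values below describe them and test nothing. After 7 days of CTL culture the supernatant was reduced in volume on a 750 kDa ultrafilter, and vesicles were bound to a DEAE column, a positively charged resin from which more negatively charged particles need more salt to leave. The labels name a fraction that eluted at 0.3 M NaCl and a fraction that eluted at 0.5 M NaCl, with 1 Cy5-labelled array for each. Both fractions come from the same kind of culture, and the mouse strain, the stimulus and the number of vesicle preparations per fraction are unknown here, as the labels do not state them. With 1 array per fraction there is no replicate spread, no test and no p-value, and every difference describes this pair of arrays.

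The B cell receptor is a membrane immunoglobulin held together with a heterodimer of CD79A and CD79B, whose tails pass the signal on. The kinase SYK binds those tails and phosphorylates the adaptor BLNK, which gathers downstream enzymes. CD22 is a sialic acid binding receptor that damps the signal, whereas CD40, CD180 and CD23 (encoded by Fcer2a) are further surface receptors of B cells and MS4A1 is the CD20 antigen. SPIB is an ETS family transcription factor of B cells and plasmacytoid dendritic cells. T cells are known to use a separate set of parts for the same steps, with CD3 chains in place of CD79, ZAP70 in place of SYK and LCP2 in place of BLNK. Syk, Cd40 and Cd180 are also expressed by myeloid cells.

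Of the 23473 probes, 16154 had an intensity on both arrays. The median of all probes with a value was 25 on each array, and an intensity above 70 at 0.3 M or above 69 at 0.5 M lay in the brightest 25%. Over the probes measured on both arrays the 0.5 M values ran lower, by 0.30 on the log2 scale, and differences are given after this shift was taken out by centring each array on its median. A positive difference is higher at 0.5 M. After centring, the median difference of the 13735 genes measured on both arrays was 0.05 and their SD was 0.57. The only error that these arrays allow comes from different probes of the same gene, whose per-probe SD was 0.58 over 635 genes, 0.50 where both probes lay above the median level and 0.62 where both lay below it. The spread between probes was thus as wide as the spread of all genes, and differences between preparations of vesicles are not part of it. Probe brightness depends on the probe as well as on the transcript, so intensities are not used to rank one gene's RNA against another's.

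All 10 genes had an intensity on both arrays, dim ones included, as did 13735 of the 19316 genes named on the array. Their intensities ran from 15 to 250 at 0.3 M, with a median of 29.5, and from 11 to 328 at 0.5 M, with a median of 56.5. The set did not move as a block. After centring, Cd79b, Blnk and Cd40 were at least 2-fold higher at 0.5 M, 0 genes were at least 2-fold lower, and 7 lay within 2-fold. Of all 13735 measured genes, 5.1% were at least 2-fold higher and 2.77% at least 2-fold lower, and since the genes were chosen with these values known nothing is read from the count of 3. Differences were above 0 for 5 genes and below 0 for 5, against 53.8% and 46.2% of all genes. Their median was 0.08, beside 0.05 for all genes, and they ran from -0.54 to 2.10. The split of all genes past 2-fold rests on the scaling: 64.8% of them were higher at 0.5 M with centring, 19.0% with the values as deposited, 49.1% with quantile normalization and 49.8% after removal of a loess trend.

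**Figure D1:**
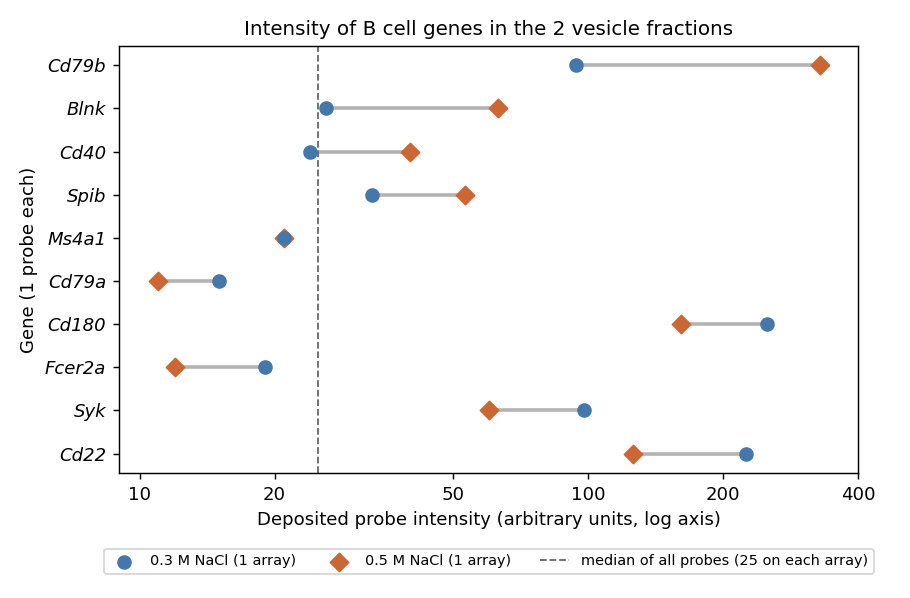
Deposited intensity of each of the 10 B cell genes (x axis, arbitrary units on a log axis) at 0.3 M (circles) and 0.5 M NaCl (diamonds), ordered by their centred difference, with the median of all probes as a dashed line. Cd79b, Blnk, Cd40 and Spib have the 0.5 M value on the right, Ms4a1 has the same value on both arrays, and the other 5 have the 0.5 M value on the left; no error bars can be drawn with 1 array per fraction.

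The chains of the receptor itself lay far apart. Cd79b, which encodes the CD79 beta chain, had an intensity of 94 at 0.3 M and 328 at 0.5 M. It was brighter than 80.3% of the probes at 0.3 M and brighter than 92.3% at 0.5 M, ties counted with it. Its centred difference was 2.10, or 4.29-fold, which is 3.64 times the per-probe SD, and only 14 of the 13735 measured genes had a larger one. Cd79a, which encodes the alpha chain that pairs with it, was dim on both arrays, at 15 and 11, and its difference was -0.15. The differences of these partners were 2.25 apart, against an SD of 0.82 expected between any 2 single-probe genes from probe disagreement alone. Whether the Cd79a probe responds at all to its transcript cannot be seen here, since no sample of B cells is included.

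Downstream of the receptor, the adaptor and the kinase stood on opposite sides of 0. Blnk, the adaptor, went from 26, close to the array median, to 63, near the brightest 25%. Its difference of 1.58 (2.98-fold) was 2.73 times the per-probe SD and lay above those of 99.3% of all genes. Syk, the kinase, was lower at 0.5 M, at 98 and then 60, with a difference of -0.41 that lay within 1 per-probe SD. The differences of Blnk and Syk were 1.98 apart, or 2.43 times the SD of 0.82 for a pair. Both genes were chosen with these values known, so this multiple is not a test. Cd22, the inhibitory coreceptor, went from 225 to 126. Its difference of -0.54 was also within the per-probe SD of 0.58, though past the 0.50 of probes above the median level. With quantile normalization it was -0.66 and with loess -0.65, both past 0.58.

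The other surface receptors were split as well. Cd40, the receptor for the T cell ligand CD40LG, went from 24 to 40, and its difference of 1.04 (2.05-fold) was 1.79 times the per-probe SD. Cd180, a Toll-like receptor relative that is displayed with the partner protein MD-1, went from 250 to 161, in the brightest 25% of both arrays, with a difference of -0.34. Ms4a1, which encodes CD20, was listed at 21 on both arrays, and its difference of 0.30 is the shift taken out by centring. Fcer2a, the low-affinity IgE receptor, was dim at 19 and 12, with a difference of -0.36. Of these receptors only Cd40 had a difference larger than 1 per-probe SD.

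Spib, the transcription factor of the set, went from 33 to 53. Its difference of 0.98 (1.98-fold) fell just short of the 2-fold mark that Cd40 just passed, with 0.05 between them, so these genes are not separable by it. Ordered by difference, Cd79b, Blnk, Cd40 and Spib came first, then a step of 0.68 down to Ms4a1. That step is smaller than the SD of 0.82 for a pair of single-probe genes. Other steps were nearly as large, at 0.53 from Cd79b to Blnk, 0.54 from Blnk to Cd40 and 0.45 from Ms4a1 to Cd79a. No break in the order is read from them. The steps among Cd180, Fcer2a, Syk and Cd22 were 0.03, 0.04 and 0.13, all far within the probe spread, and no order is given among them. Across the set, with centring, 6 genes lay within 1 per-probe SD of 0, and Cd79b and Blnk alone lay beyond 2. The SD of all genes, 0.57, was near 1 per-probe SD, and the share of all genes within these marks was not counted. Nothing is read from these counts.

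**Figure D2:**
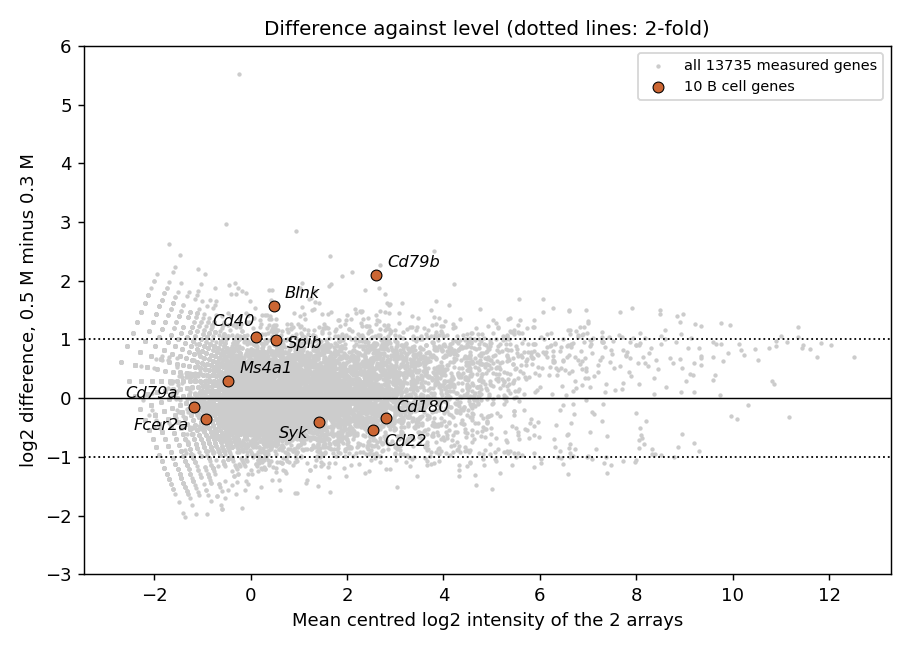
Centred log2 difference (0.5 M minus 0.3 M, y axis) against the mean centred log2 intensity of both arrays (x axis) for all 13735 measured genes (grey) and the 10 B cell genes (orange), with dotted lines at 2-fold. Cd79b, at 2.10, stands above nearly all genes of its level, Blnk, at 1.58, lies at the upper edge, and the 6 genes from Ms4a1 to Cd22 lie inside the grey cloud.

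Set against genes of like brightness, the picture was the same. When all genes were divided into 5 equal bins of mean level, Cd79b, Cd22 and Cd180 fell in the brightest bin, where 8.15% of genes were at least 2-fold higher at 0.5 M. There the Cd79b difference exceeded those of 99.9% of genes, while those of Cd180 and Cd22 exceeded 19.5% and 11.6%. Blnk, Spib and Syk fell in the next bin down, where 2.84% were at least 2-fold higher, and exceeded 99.6%, 96.9% and 16.1% of it. Cd40 exceeded 97.6% of the middle bin, where 2.66% were at least 2-fold higher. Cd79a, Ms4a1 and Fcer2a fell in the bin above the dimmest, at 39.2%, 69.9% and 25.4% of it. A filter that kept genes at or above the median intensity on at least 1 array would have dropped these 3 and kept 7 of the 10. It would have kept 7490 of all 13735 measured genes.

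The scaling moved sizes more than directions. The difference of Cd79b ran from 1.80 with the values as deposited to 2.10 with centring, with 1.97 under quantile normalization, 1.98 with loess and 1.84 with a pseudocount of 16. Blnk ran from 1.10 with the pseudocount to 1.58, and stayed past 2-fold in each setting that kept it. Cd40 did not: it was at 0.74 with the values as deposited and 0.68 with the pseudocount, which leaves 2 of the 10 genes at least 2-fold higher in those settings, beside 2.05% and 1.16% of all genes. A stricter filter, which kept genes in the top 25% on at least 1 array, left 4 of the 10, beside 3794 of all 13735 genes. Of these 4, Cd79b alone was at least 2-fold higher, beside 7.43% of all genes kept. Cd22, Syk, Cd180, Fcer2a and Cd79a were below 0 in every setting that kept them, although Cd79a came to -0.01 with the pseudocount. With the values as deposited, Cd22 (-0.84), Syk (-0.71), Fcer2a (-0.66) and Cd180 (-0.63) were past 1 per-probe SD (0.58), and Cd79a (-0.45) was not. That setting leaves in the shift between arrays. Ms4a1 was at 0 with the values as deposited and above 0 in every other setting that kept it.

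**Figure D3:**
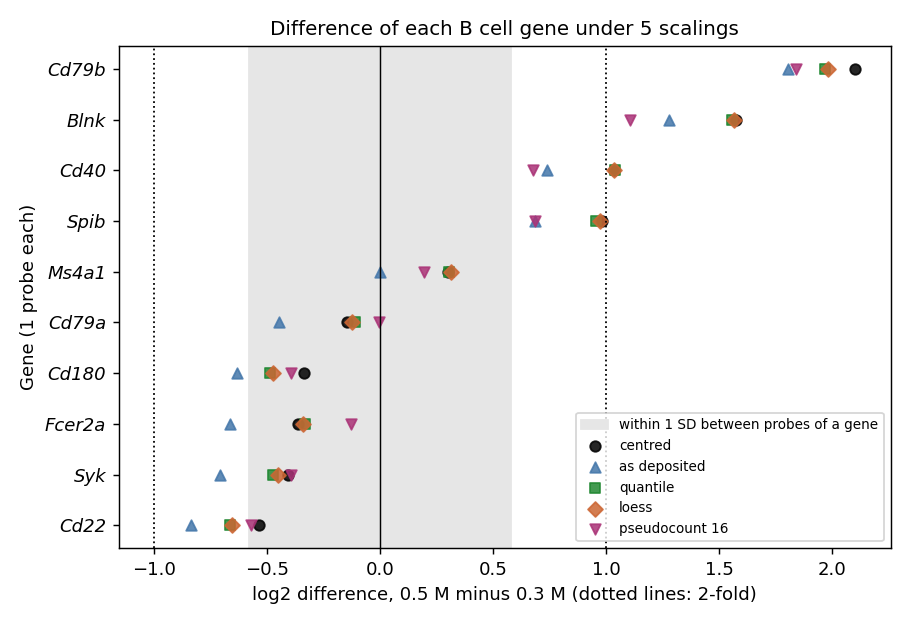
Log2 difference (0.5 M minus 0.3 M, x axis) of each of the 10 genes under centring, the values as deposited, quantile normalization, loess and a pseudocount of 16, with the range of 1 per-probe SD (0.58) on either side of 0 in grey and 2-fold as dotted lines. Cd79b and Blnk lie to the right of 2-fold under all 5, and Cd40 crosses the line with the scaling.

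Promoter sequences are shown for Blnk and Spib, both higher at 0.5 M, and for Cd22, which was not, to give the regulatory context of genes from the same cell type; these arrays measure vesicle RNA and not promoters. Each is the 250 bases before the annotated start, from RefSeq on build GRCm38.p6, written 5′ to 3′ along the gene's strand. RefSeq windows were at hand for 7 of the 10 genes. Capitals mark matches, on either strand, to the core of the B cell factor EBF1 (CCCNNGGG), the octamer bound by POU2F2 (ATTTGCAT), or a core of PU.1 and SPIB (GAGGAAGT). The Blnk window is chr19:40994222-40994471, the Spib window chr7:44532072-44532321 and the Cd22 window chr7:30879029-30879278, all on the minus strand.
Blnk: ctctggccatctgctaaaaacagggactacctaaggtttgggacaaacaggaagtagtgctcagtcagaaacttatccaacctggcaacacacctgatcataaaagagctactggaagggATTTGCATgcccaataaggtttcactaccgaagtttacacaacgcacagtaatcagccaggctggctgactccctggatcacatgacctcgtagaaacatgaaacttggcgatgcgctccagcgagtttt
Spib: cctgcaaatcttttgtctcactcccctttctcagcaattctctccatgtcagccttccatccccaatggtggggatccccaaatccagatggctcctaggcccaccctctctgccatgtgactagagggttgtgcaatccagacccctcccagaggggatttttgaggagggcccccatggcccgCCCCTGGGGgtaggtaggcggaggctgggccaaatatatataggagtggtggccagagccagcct
Cd22: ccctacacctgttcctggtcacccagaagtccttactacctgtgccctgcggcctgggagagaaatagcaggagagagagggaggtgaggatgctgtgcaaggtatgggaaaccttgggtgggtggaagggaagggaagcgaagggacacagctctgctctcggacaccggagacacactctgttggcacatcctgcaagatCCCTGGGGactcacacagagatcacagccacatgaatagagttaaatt
The Blnk window holds the octamer, 130 bases before the start. Spib holds 2 overlapping EBF1 matches, the first 65 bases before its start, and Cd22 holds 1, at 48 bases. No other of the 7 genes' windows held a match to any of the 3 patterns. Among 32851 such windows of all genes, 11.8% held the EBF1 pattern, 1.6% the octamer and 2.44% the PU.1 pattern. A match is a description of the letters and not a shown binding site. Any link between these matches and the vesicle values was not tested.

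The remaining parts of B cell receptor signalling were mostly dim or without a value. Of 24 listed genes of proximal signalling, 20 had a named probe. Of these, 10 had a value on both arrays, beside 13735 of all 19316 named genes, and 4 had a value on neither. Those 4 were the kinase gene Btk, the phospholipase gene Plcg2, the complement receptor gene Cr2 and the adaptor gene Grb2. The kinase gene Lyn had no named probe in the annotation used here and was not analysed. Among the 10 measured, 2 were at least 2-fold higher and 1 at least 2-fold lower, beside 5.1% and 2.77% of all genes, with a median of 0.42. All 3 were very dim and are named after their values were seen: the exchange factor gene Vav1 (8 and 18), the kinase subunit gene Pik3r1 (6 and 12) and Prkcb, which encodes protein kinase C beta (14 and 5). The measured genes with brighter probes lay within 2-fold. Pik3ap1, the adaptor known as BCAP, had a difference of 0.16 as the mean of a dim and a bright probe, the bright one at 448 and 477. Cd81, a tetraspanin and a common vesicle marker, went from 51 to 68 (0.71), and Pik3cd, a kinase subunit of lymphocytes, was at 38 on both.

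The inhibitory side of the pathway, where Cd22 belongs, had no gene past 2-fold in either direction among 10 measured of 14 with a probe, and a median of -0.10; of all genes 7.87% were past 2-fold. Dok3, an adaptor that restrains receptor signals, went from 352 to 158 (-0.86), and Csk, the kinase that holds SRC family kinases in check, from 284 to 304 (0.40). The phosphatase gene Ptpn22 (-0.17) and the surface receptor gene Cd5 (-0.26), both also used by T cells, were close to the bulk of genes.

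Transcription factors of B cells had a median of 0.08 over 14 measured genes of 19, near that of all genes. None was at least 2-fold higher and 1 was at least 2-fold lower, Ikzf3, which encodes Aiolos, from 53 to 20 (-1.11); of all genes 5.1% and 2.77% were. Pou2f2 (163 and 156, 0.24), Irf4 (103 and 101, 0.27) and Xbp1 (98 and 103, 0.37) differed little. Pax5, the factor that fixes B cell identity, had no value on either array. Ebf1, its partner in early B cells, had 3 probes that disagreed in brightness: 12 and 10 on the first, 218 and 137 on the next, and 6 at 0.3 M with no value at 0.5 M on the last. Neither probe with a value on both arrays was brighter at 0.5 M as deposited, and the mean of their centred differences was -0.17.

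Immunoglobulin heavy and light chain genes could not be followed. Of 25 listed names of immunoglobulin and related genes, only 7 had a named probe and 3 had a value on both arrays. None of these 7 was a heavy chain, kappa or lambda gene. Ighm and Igkc, for the mu heavy chain and the kappa light chain, had no named probe in the annotation used here. Vpreb1, a part of the surrogate light chain, went from 72 to 43 (-0.44), Mzb1, a chaperone of antibody secretion, from 43 to 47 (0.43), and Vpreb3 was at 12 on both (0.30). The measured genes were all within 2-fold.

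Other surface receptors of B cells held 19 measured genes of 27 with a probe. Their median was 0.18, 3 were at least 2-fold higher and 0 at least 2-fold lower, beside 5.1% and 2.77% of all genes. Fcmr, which encodes the Fc receptor for IgM, went from 34 to 102, with a difference of 1.88 (3.69-fold) that falls between those of Cd79b and Blnk. Ccr6, a chemokine receptor of B cells and of some T cells, went from 38 to 71 (1.20), and Cd37, a tetraspanin of lymphocytes, from 150 to 278 (1.19). Lta, which encodes lymphotoxin alpha, was at 47 and 53 (0.47). Ly86, the MD-1 partner of CD180, had no value on either array while the Cd180 probe itself was bright.

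Around CD40, the genes of the pathway had a median near that of all genes. Of 17 measured genes of 18 with a probe, 0 were at least 2-fold higher and 1 at least 2-fold lower, the dim Traf5 (15 and 6), named after its value was seen. Of all genes 5.1% and 2.77% were past the same marks, and the median of the list was 0.04. Traf1 (218 and 336, 0.92), an adaptor of the TNF receptor family, Nfkbia (465 and 647, 0.78), which encodes the NF-kB inhibitor, and Tnfaip3 (38 and 51, 0.72), which encodes A20, were higher, and the NF-kB subunit gene Relb was lower (102 and 52, -0.67). Cd40lg, the ligand that T cells make, had a value only at 0.5 M, 36, and no fold is given against an empty cell.

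**Figure D4:**
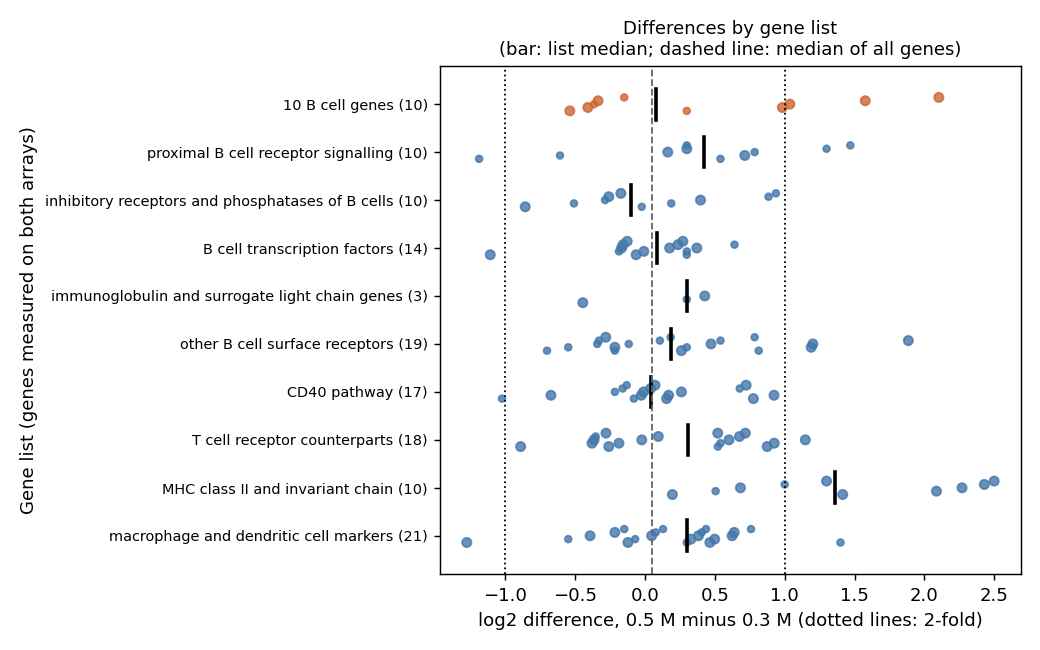
Centred log2 differences (0.5 M minus 0.3 M, x axis) of the genes measured on both arrays in the 10 B cell genes (orange) and in 9 related lists (blue), with larger points for genes at or above the median intensity on at least 1 array, bars for list medians, a dashed line for the median of all genes (0.05) and dotted lines at 2-fold; vertical spread within a list only separates points. The B cell genes run from -0.54 to 2.10 around a median of 0.08. All 10 measured genes of the MHC class II and invariant chain list lie above 0 after centring.

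T cell markers were checked against the label of the cells. Of these markers, 6 of the 8 measured were in the brightest 25% on each array, led by Cd8a (3677 and 2463). The Cd8a values come from 1 of its 2 probes, as the other had no value on either array. The dim Cd3e (12 and 14) lay below the median of both arrays. In the wider list of T cell receptor genes several others were dim, such as Fyn (11 and 13) and Ubash3a (11 and 7), and Ptprc, Plcg1, Trat1 and Themis had a value only at 0.3 M, from 4 to 13; these 6 are named after their values were seen. The counterparts of Syk and Blnk lay on the other side of 0 from them. Zap70, the counterpart of Syk, went from 231 to 300 (0.68) while Syk was at -0.41, and Lcp2, the counterpart of Blnk, went from 49 to 35 (-0.19) while Blnk was at 1.58. Blnk minus Lcp2 was 1.76, or 2.2 times the SD of 0.82 for a pair from probe spread. Syk minus Zap70 was -1.08, or -1.33 times that SD. Over 18 measured T cell receptor genes the median was 0.31, with 1 at least 2-fold higher, the kinase gene Txk (30 and 54, 1.15), and 0 lower, beside 5.1% and 2.77% of all genes. That median was 0.01 with the values as deposited, 0.08 with quantile normalization, 0.06 with loess and 0.14 with the pseudocount. The CD3 chain genes Cd3d (849 and 990, 0.52) and Cd247 (43 and 53, 0.60) were also named after their values were seen. Their differences were positive but near 1 per-probe SD (0.58), whereas Cd79b was at 2.10 and Cd79a at -0.15. The largest negative difference was that of the adaptor gene Lat (294 and 129, -0.89), and Cd3g (0.93) and Cd8b1 (0.87) had the largest positive ones after Txk.

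MHC class II genes, which B cells and other antigen-presenting cells express and which are not counted in the set, were the list nearest to Cd79b in size of difference. The 10 measured genes of this list include Cd74 and the transactivator gene Ciita. Of the 10, 7 were at least 2-fold higher and 0 lower, beside 5.1% and 2.77% of all genes. Their median was 1.36, and it was 1.06 with the values as deposited and 0.89 with the pseudocount. Their sizes were known when the list was made. The largest differences were those of Cd74, the invariant chain, from 43 to 188 (2.43), and H2-Aa, from 188 to 863 (2.50). H2-Ea, from 94 to 368 (2.27), and H2-Eb1, from 58 to 200 (2.09), came next. Within 2-fold were the dim H2-Ab1 (13 and 15, 0.51), H2-DMb1 (105 and 137, 0.68) and H2-Ob (29 and 27, 0.20). Searched by distance in the pair of centred log2 values, the named genes nearest to Cd79b among all measured genes were H2-Ea (distance 0.17), Filip1l (0.18), Olfr806 (0.35), H4c6 (0.46) and Gsn (0.46). With 2 arrays such likeness rests on 2 values per gene.

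Marker lists of whole cell types were summed as deposited intensities, before centring. A few bright probes make up much of each sum, so the sums are given as values only. Each list was also summed without the gene that was brightest over both arrays together. For B cells this was Cd79b (94 and 328), although Cd22 was the brighter at 0.3 M (225 and 126). Of 11 B cell markers, 8 had a named probe and 6 a value on both arrays. Their summed intensity was 489 at 0.3 M and 572 at 0.5 M with Cd79b, and 395 and 244 over the other 5 without it. Among the 6, 3 were in the brightest 25% on each array (Cd79b, Cd22 and Ebf1), 3 were dim on both (Cd79a, Ms4a1 and Fcer2a), and Pax5 and Cr2 had no value. T cell markers summed to 6063 and 5211 over 8 genes, and to 2386 and 2748 over 7 without Cd8a. Macrophage and dendritic cell markers summed to 444 and 265 over 7 of 10, and to 185 and 178 over 6 without Mrc1, the only one in the brightest 25%. The part of B cells or other antigen-presenting cells in the culture in these values was not tested. In such bulk vesicle RNA, fewer vesicles from a cell type and less RNA in each cannot be told apart.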

How the data were processed

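Per the labels' protocols, total RNA from each vesicle fraction went through amino allyl amplification before coupling to Cy5. The deposited intensity values are whole numbers on a linear scale, with a lowest value of 4 (0.3 M) or 5 (0.5 M), as read from the values. Not given in the sources used here are the scanner, the background correction, the normalization and why some cells are empty. Symbols came from the array annotation for 20690 probes and were matched to RefSeq (GRCm38.p6) by Entrez identifier for 20556. In all, 8 symbols were changed, and 2783 probes had none. Intensities were log2-transformed, and each array was centred on its median over probes with a value on both. Empty cells stayed empty, probes of a gene were averaged, and no filter on dim genes was used. Calls used 2-fold. No test was possible with 1 array per group. The per-probe SD came from the first 2 probes of each gene with several. The calculation (pandas 2.3.3, loess from statsmodels 0.14.6 with span 0.3) was tested on simulated data. The genes and lists were chosen with earlier results of these data known. Named genes were all 10 members, up to 4 per list with the largest absolute difference at or above the median intensity on at least 1 array, fixed partners, and the 5 nearest to Cd79b, passing over predicted and RIKEN names. Alternatives tried were no centring (the values as deposited), quantile normalization, loess, a pseudocount of 16, filters at the median and at the top 25%, the brightest probe, and empty cells at the array's lowest value.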

Additional observations from a re-analysis of the deposited data

How the results depend on the processing

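No paired analysis was possible because each group has 1 array, and no replicate could be left out. The count of B cell genes at least 2-fold higher was 3 and became 1 with the stricter filter, which kept only 4 of the 10; the count at least 2-fold lower was 0 in every setting. The median of the set, 0.08, was -0.22 with the values as deposited, where the shift between arrays (-0.30) is left in. It was 0.98 with the filter on dim genes and -0.37 with the stricter one, because those filters drop members, so the median of the set says little. Of all genes, 701 were at least 2-fold higher and 380 lower with centring, 282 and 1204 with the values as deposited, 499 and 518 with quantile normalization, 502 and 507 with loess, 160 and 98 with the pseudocount, 390 and 175 with the filter, 282 and 82 with the stricter filter, and 726 and 393 with the brightest probe. With empty cells at the lowest value they were 906 and 549. Dim genes such as Cd79a, Ms4a1 and Fcer2a had whole-number intensities from 11 to 21, where a step of 1 unit is a larger part of the value than for bright genes.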

Other observations

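Macrophage and dendritic cell genes, which share Syk, Cd40 and Cd180 with B cells, ran in both directions. Of 28 listed genes, all with a probe, 21 had a value on both arrays. Differences were above 0 for 14 and below 0 for 7, against 53.8% and 46.2% of all genes. Their median was 0.30, and 0 with the values as deposited. Past 2-fold were 1 gene higher and 1 lower, beside 5.1% and 2.77% of all genes. Mrc1, the macrophage mannose receptor, was at least 2-fold lower at 0.5 M, from 259 to 87 (-1.27), and the scavenger receptor gene Marco, very dim at 7 and 15 and named after its value was seen, was at least 2-fold higher. Fcer1g, an adaptor chain of Fc receptors that signals through Syk, went from 83 to 105 (0.64), Batf3, a factor of cross-presenting dendritic cells also made by activated T cells, from 135 to 169 (0.62), and C1qc, a complement chain, from 27 to 31 (0.50). Adgre1, Itgam, Mpeg1 and Clec9a had no value on either array.

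The array annotation ties the probes of Cd22 and Cd40 to noncoding transcript records of those genes and the other 8 probes to coding records. Which transcripts these probes bind was not tested.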
